A study of Homo sapiens with 12 samples.

Results

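Cytoplasmic RNA of U2OS cells after DBP5 knock-down was set directly against cytoplasmic RNA of the same line after IPPK knock-down. The comparison drew on 6 of the 12 arrays of the series, the 3 labelled as cytoplasmic RNA with DBP5 siRNA (below, the DBP5 arrays) and the 3 labelled with IPPK siRNA (the IPPK arrays), and no array of the control siRNA entered the contrast. U2OS is an established human osteosarcoma cell line. Both groups are this line under transient knock-down at 20 nM siRNA, and the methods give 48 h of culture before RNA was isolated. Each of 3 slides carried 1 array of every siRNA of the series, so the DBP5 and the IPPK array with the same number shared a slide. DBP5 arrays always lay at position 2 of a slide and IPPK arrays at position 4, so siRNA and position cannot be told apart. The 3 control siRNA arrays, at position 1, are used below to place a level, as a ratio to their mean. All 12 arrays set the normalization and the spread behind the p-values. The methods call the array experiments independent but do not say whether they were separate cultures, so p-values measure the spread between these arrays.

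DBP5, listed on the array as DDX19B, is a DEAD-box RNA helicase at the cytoplasmic face of the nuclear pore, where it removes export proteins from mRNA as it leaves the nucleus. IPPK is the kinase that makes inositol hexakisphosphate (IP6), and IP6 together with GLE1 stimulates the ATPase activity of DBP5. Both proteins therefore serve a common export step, while IP6 also has roles outside it. The question put to the data was which cytoplasmic transcripts separate cells given siRNA against the helicase from cells given siRNA against the kinase.

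The siRNAs are shown because they define the groups. The study lists 1 siRNA against DBP5 and a pair against IPPK, and the labels do not say which of the pair was on the arrays. Loss of a target and other effects of its siRNA sequence therefore cannot be told apart on these arrays. The sense strands are given 5′ to 3′, with bases written as DNA in capitals.
DBP5 #1: caagguguuuguucuggaugaggCT
IPPK #1: cugggaaguggaagcagaucagcAA
IPPK #2: gccaaaauguggguuuauucc

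The targeted transcripts were checked first on every array. A level is the normalized log2 intensity of the gene's brightest probe, and levels of different genes are not compared. DDX19B (NM_007242, chromosome 16) stood at 6.25, 6.21 and 6.20 on the DBP5 arrays of slides 1 to 3, at 10.03, 9.95 and 9.96 on the IPPK arrays, and at 10.23, 10.15 and 10.15 in control. Its DBP5 arrays lay far below all others. The difference, DBP5 minus IPPK knock-down, was -3.76 ± 0.04 (log2, SE of the limma fit, adjusted p = 9.9e-10), or 13.6-fold. As a ratio to control, DDX19B was 0.0643 ± 0.0012 (SD, n = 3 arrays) on the DBP5 arrays and 0.874 ± 0.0276 on the IPPK arrays.

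DDX19A, the close paralog of DDX19B on the same chromosome, was lower than control in both groups. It stood at 8.62, 8.57 and 8.49 on the DBP5 arrays, at 11.05, 11.07 and 11.03 on the IPPK arrays, and at 12.80, 12.81 and 12.73 in control. These are ratios of 0.0537 ± 0.0026 and 0.301 ± 0.0041 (SD, n = 3). The difference between the knock-downs was -2.49 ± 0.04 (SE, limma adjusted p = 1.6e-08). The paralogs are near-identical in sequence, and whether either probe reads the other transcript was not tested.

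IPPK (NM_022755, chromosome 9) stood at 8.21, 8.15 and 8.11 on the DBP5 arrays, at 6.94, 6.95 and 7.05 on the IPPK arrays, and at 9.32, 9.43 and 9.47 in control. The groups did not overlap, and IPPK was below control in both, at 0.42 ± 0.0142 on the DBP5 arrays and 0.186 ± 0.0082 on the IPPK arrays (SD, n = 3). The difference was 1.17 ± 0.07 (SE, limma adjusted p = 1.6e-06). The second, dimmer probe of IPPK gave 0.25 ± 0.08 (SE, adjusted p = 0.0318) and ratios to control of 0.59 on the DBP5 arrays and 0.497 on the IPPK arrays. GLE1, the cofactor of DBP5, did not pass the test between the knock-downs (0.13 ± 0.16, adjusted p = 0.536), at 0.783 ± 0.0736 of control on the DBP5 arrays and 0.717 ± 0.0464 of it on the IPPK arrays.

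**Figure D1:**
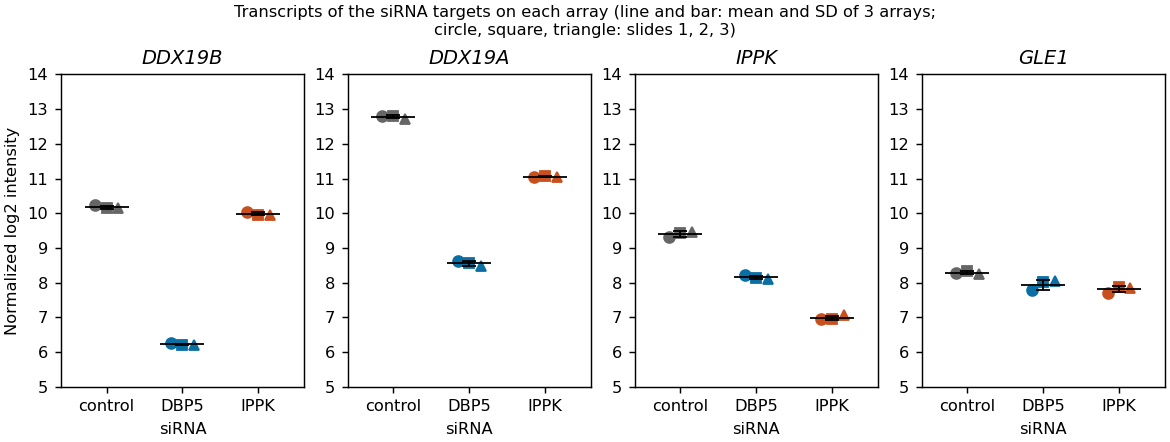
Normalized log2 intensity of DDX19B (DBP5), its paralog DDX19A, IPPK and GLE1 on each control, DBP5 siRNA and IPPK siRNA array; symbols mark the 3 slides, and the line and bar give the mean and SD of 3 arrays. DDX19B was far below control on the DBP5 arrays alone, while DDX19A and IPPK lay below control with either siRNA.

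Between 75.7% and 77.7% of probes were well above background on the DBP5 arrays and between 70.9% and 73.8% on the IPPK arrays. Of 8 osteosarcoma markers listed for a check of the line, 7 were well above background on all 6 arrays, among them RUNX2, SPARC and VIM, and COL1A2 was on none. Of 16 markers of other cell types, 9 were also well above background on all 6 arrays, and HBB and PECAM1 on none. Pearson's r over genes was at least 0.996 between arrays of the same knock-down and 0.981 to 0.986 between a DBP5 and an IPPK array. The arrays read bulk RNA of the cytoplasmic fraction, in which fewer cells with a transcript and less of it per cell cannot be told apart, and nuclear RNA was not measured on them.

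Among 20272 genes tested, 5389 (26.6%) were higher and 5656 (27.9%) lower on the DBP5 than on the IPPK arrays at a limma adjusted p of 0.05, the limit meant by "passed" and by "higher" and "lower" in counts below. Together these are 54.5% of genes, and the counts of each list below are to be set beside these shares. Normalization brings the arrays to a common level (median difference -0.0033 over all genes). Higher and lower are therefore relative to the bulk of transcripts, and a change common to most of them was not measured. At least 1.5-fold apart and past the test were 1970 genes (9.72%) higher and 1913 (9.44%) lower, or 19.2% in all. At least 2-fold apart were 680 and 661, and at least 4-fold 71 and 55. The arrays of both knock-downs did not overlap for 57.2% of genes. With normexp background correction of the median signals, 1298 genes were higher and 1206 lower by 1.5-fold. Well above background on all 3 DBP5 arrays and on no IPPK array were 213 genes that passed, and 24 the other way around. When each of the 6 arrays had to exceed background, which left 18766 genes, the direction that held more genes turned at both sizes, with 1670 higher and 1844 lower by 1.5-fold, and 529 and 607 by 2-fold.

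The control level was then placed beside these genes. Against control, 28.9% of all genes were higher and 29.6% lower on the DBP5 arrays, and 30.0% and 30.4% on the IPPK arrays. Of the 1970 genes higher by 1.5-fold, control lay between the knock-downs for 1004, above both for 595 and below both for 371. The IPPK arrays were at least 1.5-fold below control and past the test for 966 of them, and the DBP5 arrays at least 1.5-fold above it for 665. Of the 1913 lower by 1.5-fold, control lay between for 936, above both for 457 and below both for 520. The IPPK arrays were at least 1.5-fold above control for 828 of these, and the DBP5 arrays at least 1.5-fold below it for 801. Both comparisons with control share its arrays, and these counts are a description. Among genes that passed, 213 were well above background on all 3 DBP5 arrays and no IPPK array, and 24 the reverse, beside the lower share of such probes on IPPK arrays given above.

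**Figure D2:**
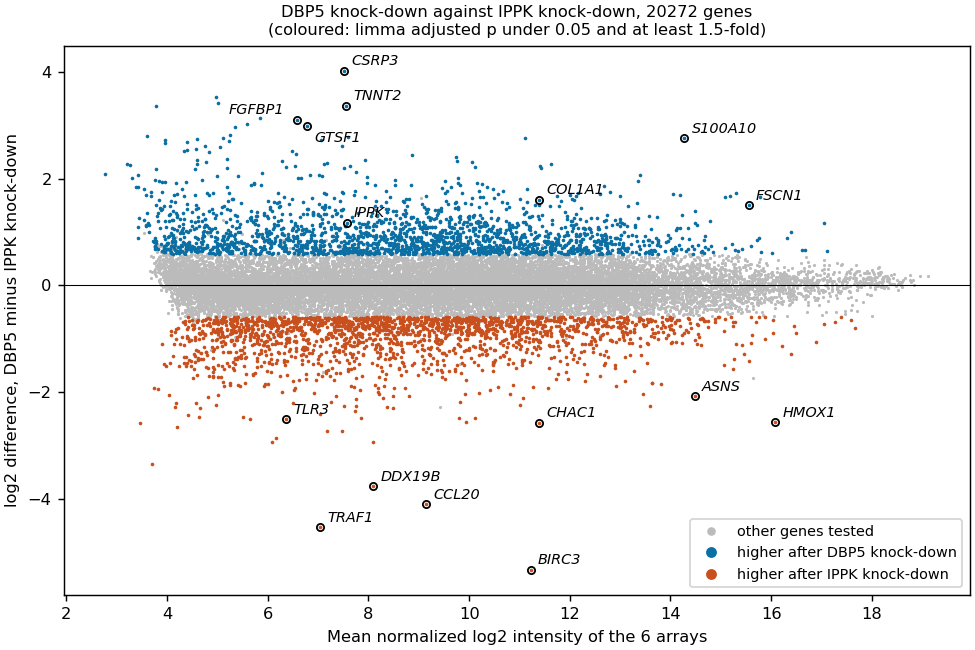
Each point is 1 of 20272 genes, with the mean normalized log2 intensity of the 6 arrays on the x axis and the log2 difference, DBP5 minus IPPK knock-down, on the y axis. Coloured points passed limma and differed at least 1.5-fold; BIRC3 at -5.33 and CSRP3 at 4.03 are the extremes.

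Genes of the NF-kappaB response held the largest differences toward lower levels on the DBP5 arrays. NF-kappaB is a transcription factor family held in the cytoplasm by IkappaB proteins and released by signals such as tumour necrosis factor (TNF), and it induces its own inhibitors, chemokines and survival genes. BIRC3, a ubiquitin ligase of TNF receptor complexes, stood at 8.57, 8.50 and 8.61 on the DBP5 arrays, at 13.89, 13.92 and 13.87 on the IPPK arrays, and at 9.12, 9.14 and 9.06 in control. The IPPK arrays alone were high, at 27.6 ± 0.551 times control (SD, n = 3), against 0.685 ± 0.026 on the DBP5 arrays. The difference was -5.33 ± 0.07 (SE, limma adjusted p = 1.6e-09), or 40.3-fold.

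TRAF1, a TNF receptor adaptor, had the same order. Its level was 4.91, 4.62 and 4.79 on the DBP5 arrays and 9.0, 9.49 and 9.43 on the IPPK arrays, or 0.407 ± 0.0418 and 9.43 ± 1.68 of control (difference -4.53 ± 0.14, adjusted p = 1.1e-07). CCL20, a chemokine that attracts lymphocytes and dendritic cells, had another order against control. It was 7.37, 7.06 and 6.87 on the DBP5 arrays, 11.27, 11.16 and 11.17 on the IPPK arrays and 11.06, 11.08 and 10.94 in control. The DBP5 arrays were at 0.0657 ± 0.0116 of control, and the IPPK arrays, at 1.13 ± 0.0468, did not pass against control (adjusted p = 0.456).

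Of 24 NF-kappaB subunits and feedback genes, 15 were lower on the DBP5 arrays and 5 higher (median -0.33). Lower by 1.5-fold were 10 (41.7%) and higher 0, against 9.44% and 9.72% of all genes. BIRC2, a family member of BIRC3, had a difference of -1.38 ± 0.05 and BCL2A1, a BCL2-like survival factor, one of -1.26 ± 0.06. The second, dimmer probe of BCL2A1 gave -3.17 ± 0.09, with the DBP5 arrays at 0.455 of control, against 1.32 ± 0.0967 for the brighter one. The inhibitors TNFAIP3 (-0.80 ± 0.07) and NFKBIA (-0.60 ± 0.04), chosen after their values were seen, were lower too. The subunit RELA was higher on the DBP5 arrays (0.45 ± 0.08).

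Chemokines were split. Of 16 tested, 8 were lower and 5 higher (7 and 4 by 1.5-fold). CCL3 was at 1.16 ± 0.0545 of control on the DBP5 arrays and 4.02 ± 0.123 on the IPPK arrays. CXCL8, the neutrophil chemokine interleukin-8, was below control in both, at 0.111 ± 0.004 and 0.345 ± 0.0157. CXCL5 ran the other way, at 0.819 ± 0.0383 and 0.311 ± 0.0067 (difference 1.40 ± 0.05, adjusted p = 2.7e-07). Of 21 interleukins, LIF and colony-stimulating factors, 7 (33.3%) were lower and 6 (28.6%) higher, beside 27.9% and 26.6% of all genes. Their median was -0.01, with differences of -2.24 to 1.54. The lowest of them, the cytokine IL24, had a difference of -2.24 ± 0.06, at 0.217 ± 0.0153 and 1.02 ± 0.0277 of control.

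The promoter of BIRC3 is shown because BIRC3 had the largest difference of all genes. Capitals mark the matches to the kappaB consensus, searched on both strands of a window of 300 bases around the RefSeq start site (GRCh38.p14, chr11:102317234-102317533, plus strand).
BIRC3: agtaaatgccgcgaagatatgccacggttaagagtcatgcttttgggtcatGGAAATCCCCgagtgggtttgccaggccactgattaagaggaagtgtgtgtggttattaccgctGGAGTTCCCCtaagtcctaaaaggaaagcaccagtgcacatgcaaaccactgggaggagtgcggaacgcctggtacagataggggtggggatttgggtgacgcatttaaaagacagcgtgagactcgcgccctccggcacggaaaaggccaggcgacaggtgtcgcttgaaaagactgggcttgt

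The matches begin at bases -199 and -135 from the start site. Of 27305 RefSeq windows of this length, 13.6% hold a match, and so do 8 of the 21 list members with a window, namely NFKB1, REL, NFKBIA, NFKBIZ, TNFAIP3, TNIP2, BIRC3 and BCL3. Of these, 6 were lower on the DBP5 arrays and 0 higher (median -0.52). Of the 13 without a match, 7 were lower and 4 higher (median -0.32).

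Of 26 Toll-like receptors and RNA sensors, 10 were lower on the DBP5 arrays (38.5%) and 8 higher (30.8%), beside 27.9% and 26.6% of all genes, and 3 were lower and 3 higher by 1.5-fold. TLR3, the endosomal receptor for double-stranded RNA, stood at 5.20, 5.09 and 5.04 on the DBP5 arrays, at 7.63, 7.61 and 7.61 on the IPPK arrays, and at 7.11, 7.31 and 7.07 in control, so the DBP5 arrays were the low group. The difference was -2.50 ± 0.09 (SE, limma adjusted p = 1.9e-07). IFIH1, the cytosolic sensor MDA5, was at 0.45 ± 0.0308 and 1.8 ± 0.199 of control.

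The adaptor TRAF3 and the kinase IRAK1, which act behind such receptors, had their low group on the IPPK arrays. TRAF3 was 9.19, 9.21 and 9.33 on the DBP5 arrays and 7.30, 7.54 and 7.56 on the IPPK arrays, or 0.958 ± 0.0494 and 0.28 ± 0.027 of control (difference 1.77 ± 0.06, adjusted p = 1.5e-07). IRAK1 was at 1.09 ± 0.143 and 0.343 ± 0.007 of control. STAT2, which carries interferon signals to the nucleus, had a difference of -1.05 ± 0.05 and STAT3 one of 0.48 ± 0.08 (0.79 ± 0.09 by its dimmer probe). Of 41 interferon-stimulated genes, 18 were lower and 8 higher (9 and 1 by 1.5-fold), among them OAS2 at -1.28 ± 0.09 and OAS3 at -0.94 ± 0.06, enzymes that sense double-stranded RNA. Higher by 1.5-fold were 3 without DBP5 replicate 2 or IPPK replicate 3, and 0 of the 36 well above background on all 6 arrays. The dimmer second probes of OAS2 (-0.15 ± 0.12) and OAS3 (-0.27 ± 0.25) did not pass. IFNB1 did not pass the filter on dim probes.

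**Figure D3:**
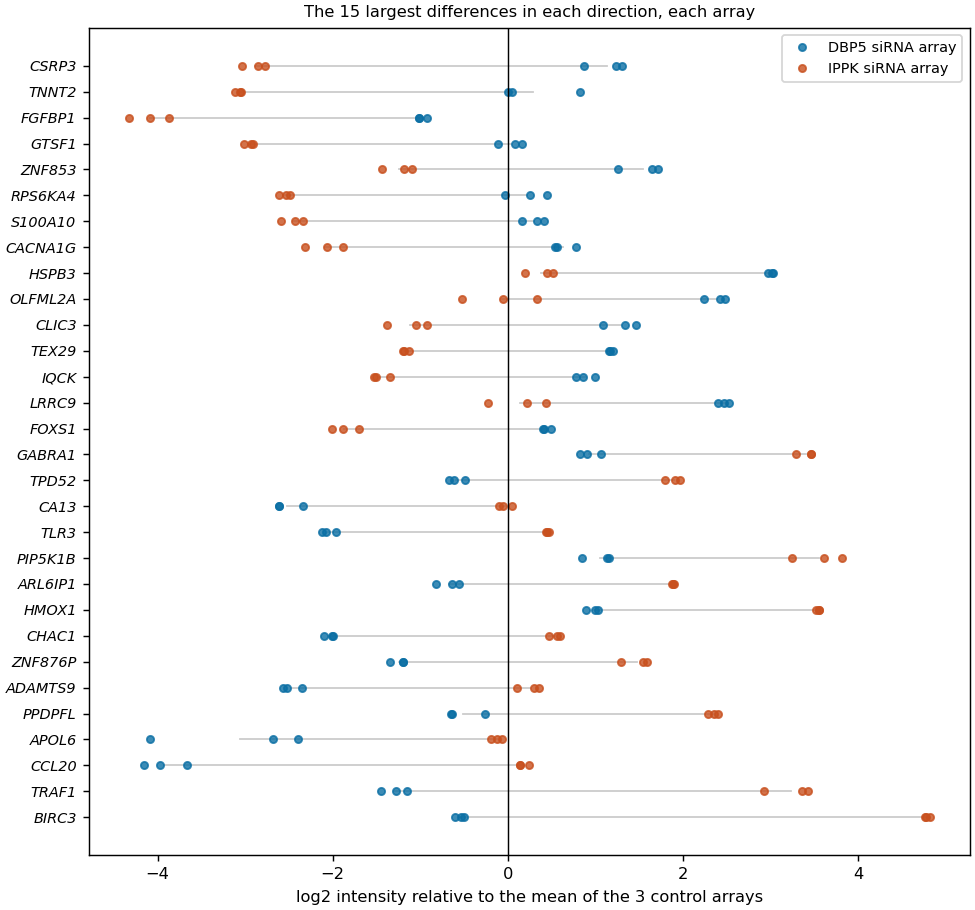
log2 intensity of each DBP5 and IPPK array relative to the mean of the 3 control arrays, for the 15 genes with the largest difference in each direction among those well above background on all 6 arrays. The vertical line is control; BIRC3, TRAF1 and HMOX1 lay above it on the IPPK arrays, and CCL20, TLR3 and CHAC1 below it on the DBP5 arrays.

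Targets of ATF4 and genes of the unfolded protein response had the highest share of lower members among the 56 lists. ATF4 is the transcription factor made when the kinases of the integrated stress response phosphorylate eIF2alpha, and it drives amino acid synthesis and transport. The unfolded protein response adds chaperones and sensors of the endoplasmic reticulum. Of 38 genes, 31 (81.6%) were lower on the DBP5 arrays, 1 was higher and 6 did not pass. The median difference was -0.54, with -0.39 for DBP5 and 0.28 for IPPK knock-down against control. It was -0.57, -0.49 and -0.57 within slides 1, 2 and 3, and 18 members were lower by 1.5-fold.

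CHAC1, which degrades glutathione, stood at 10.14, 10.13 and 10.04 on the DBP5 arrays, at 12.73, 12.70 and 12.60 on the IPPK arrays, and at 12.18, 12.11 and 12.13 in control. The DBP5 arrays lay below control and the IPPK arrays above it, with a difference of -2.58 ± 0.05 (SE, limma adjusted p = 2.3e-08). ASNS, asparagine synthetase, followed at 13.46, 13.38 and 13.50 against 15.47, 15.54 and 15.57, with control at 14.89, 14.96 and 14.87 (difference -2.08 ± 0.05, adjusted p = 7.2e-08). ATF4 itself, chosen after its values were seen, was at 0.487 ± 0.0317 and 1.02 ± 0.0289 of control (difference -1.07 ± 0.05).

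SLC7A11, the cystine and glutamate exchanger, had a difference of -1.55 ± 0.12. TRIB3, HSPA5 and XBP1 were also chosen after their values were seen. TRIB3, a pseudokinase that restrains ATF4, had a difference of -1.05 ± 0.06. Of the chaperone branch, HSPA5 (BiP) was at 1.39 ± 0.204 and 2.47 ± 0.128 of control, and the transcription factor XBP1 at 0.694 ± 0.0321 and 1.29 ± 0.021. DDIT3 (CHOP) was the member higher on the DBP5 arrays, at 10.19, 10.27 and 10.07 against 8.84, 9.87 and 9.90 (difference 0.64 ± 0.21, adjusted p = 0.0297). The IPPK array of slide 1 lay far below the others, and without it the difference was 0.30 (adjusted p = 0.0059). The DDIT3 call was lost without DBP5 replicate 1 (adjusted p = 0.119) or 2 (adjusted p = 0.0659).

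The promoters of CHAC1 and ASNS are shown because these genes lead the list, and that of HSPA5 because it carries the other element of this response. Capitals mark TGATGNAA, the CEBP-ATF composite element, in CHAC1 (chr15:40953221-40953520, plus strand) and ASNS (chr7:97872359-97872658, minus strand), and the ER stress response element in HSPA5 (chr9:125241294-125241593, minus strand), searched on both strands (RefSeq, GRCh38.p14).
CHAC1: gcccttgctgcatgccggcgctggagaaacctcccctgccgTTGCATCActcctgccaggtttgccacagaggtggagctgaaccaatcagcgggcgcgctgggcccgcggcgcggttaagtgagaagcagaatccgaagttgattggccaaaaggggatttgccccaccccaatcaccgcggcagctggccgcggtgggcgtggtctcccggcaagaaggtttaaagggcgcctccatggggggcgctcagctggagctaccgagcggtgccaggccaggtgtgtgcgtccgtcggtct
ASNS: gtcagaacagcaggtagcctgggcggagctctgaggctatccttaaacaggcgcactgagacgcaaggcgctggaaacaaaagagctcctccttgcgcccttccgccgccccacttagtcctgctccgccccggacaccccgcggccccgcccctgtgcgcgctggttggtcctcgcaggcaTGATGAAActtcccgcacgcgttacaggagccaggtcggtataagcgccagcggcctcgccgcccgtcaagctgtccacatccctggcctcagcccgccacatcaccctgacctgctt
HSPA5: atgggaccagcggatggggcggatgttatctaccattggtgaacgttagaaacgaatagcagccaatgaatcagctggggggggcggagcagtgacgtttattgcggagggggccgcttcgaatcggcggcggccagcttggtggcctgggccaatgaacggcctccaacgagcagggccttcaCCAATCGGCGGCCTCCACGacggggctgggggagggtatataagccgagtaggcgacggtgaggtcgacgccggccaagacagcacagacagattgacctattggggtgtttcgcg

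The composite element was in 3.67% of the 27305 windows and in 5 of the 35 list members with a window, namely CHAC1, ASNS, SLC3A2, ATF3 and HERPUD1. Of these, 5 were lower on the DBP5 arrays (median -0.96), and of the 30 without it 23 were lower and 1 higher (median -0.47). The ER stress response element was in 0.0806% of windows and in 5 list members, XBP1, HSPA5, HSP90B1, CRELD2 and CALR. Of these, 2 were lower and 0 higher (median -0.18), against 26 and 1 of the 30 without it. No list member held both elements, and a match is a description of the letters in the window.

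**Figure D4:**
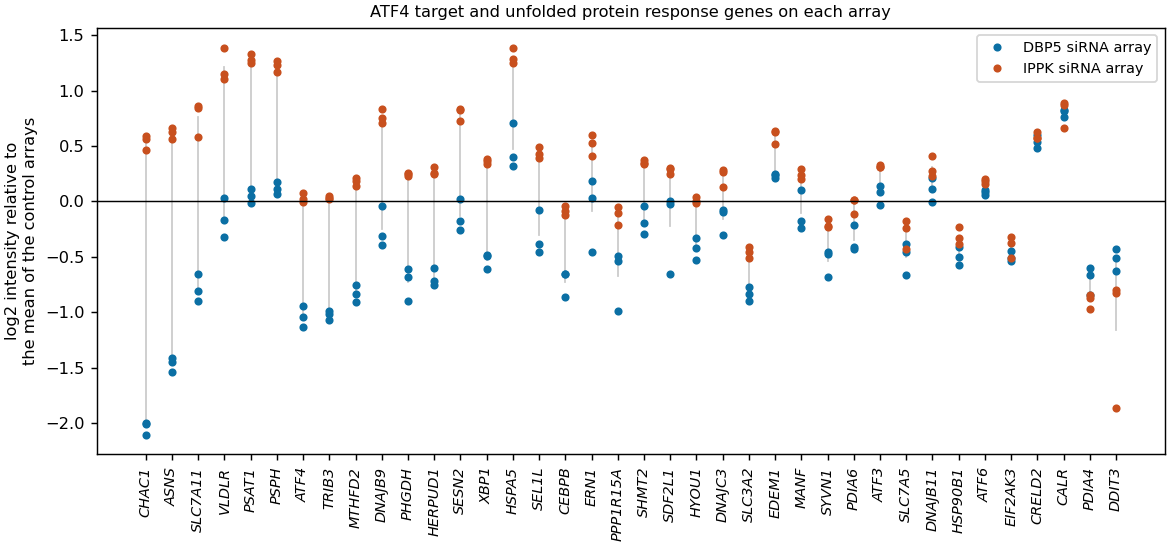
log2 intensity of each DBP5 and IPPK array relative to the control mean for the 38 ATF4 target and unfolded protein response genes, ordered by the difference between the knock-downs. The DBP5 arrays lie below the IPPK arrays at the end of the list with CHAC1 and ASNS, and DDIT3 at the other end is the exception that passed.

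Aminoacyl-tRNA synthetases, which charge tRNAs with amino acids and several of which are ATF4 targets, leaned the same way. Of 37, 21 were lower on the DBP5 arrays and 5 higher (median -0.24). EPRS1, the glutamyl-prolyl synthetase, was 13.02, 12.73 and 12.69 on the DBP5 arrays and 14.38, 14.21 and 14.21 on the IPPK arrays (difference -1.46 ± 0.11, adjusted p = 9.2e-06). MARS1 had a difference of -0.90 ± 0.06 (-0.54 ± 0.06 by its dimmer probe), CARS1 one of -0.85 ± 0.05 and IARS1 one of -0.76 ± 0.08. The mitochondrial NARS2 was higher on the DBP5 arrays (1.37 ± 0.07).

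Genes of the hypoxia list that passed the test were more often lower than higher on the DBP5 arrays. HIF1A, the oxygen-regulated subunit of the hypoxia-inducible factor, was at 0.621 ± 0.018 of control there and 1.09 ± 0.0336 on the IPPK arrays (difference -0.82 ± 0.05, adjusted p = 1.8e-06). Of 26 HIF factors and hypoxia targets, 17 were lower and 3 higher (12 and 1 by 1.5-fold, median -0.37). LOX, the lysyl oxidase that crosslinks collagen, stood at 9.85, 9.76 and 9.76 on the DBP5 arrays and at 11.82, 11.84 and 11.85 on the IPPK arrays, or 1.43 ± 0.051 and 5.9 ± 0.0569 of control. Its difference was -2.04 ± 0.07 (adjusted p = 1.5e-07). CA12, a carbonic anhydrase, and PDK1, which restrains pyruvate entry into mitochondria, had differences of -1.78 ± 0.12 and -1.35 ± 0.06. ADM, adrenomedullin, was higher on the DBP5 arrays (0.86 ± 0.08). Of 19 glycolytic enzymes, several of them hypoxia targets, 3 were lower and 4 higher, and 8 were higher without DBP5 replicate 1.

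Oxidative stress genes were led by HMOX1, heme oxygenase. It stood at 14.85, 14.82 and 14.72 on the DBP5 arrays, at 17.38, 17.35 and 17.37 on the IPPK arrays, and at 13.92, 13.88 and 13.66 in control. HMOX1 was thus above control in both, at 1.96 ± 0.094 and 11.7 ± 0.134 times it, with a difference of -2.57 ± 0.06 (adjusted p = 4.3e-08). TXNRD1, thioredoxin reductase, was at 1.03 ± 0.105 and 2.55 ± 0.0647 of control. Of 28 NRF2-driven genes, 11 were lower on the DBP5 arrays and 6 higher (median -0.09).

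Metallothioneins, small proteins that bind zinc and copper, were listed with MTF1, which is not one of them (difference -0.41). The list had medians of 0.38 for DBP5 and 0.90 for IPPK knock-down against control. Of 11 genes of the list, 8 were lower on the DBP5 arrays and 1 higher (median -0.48). MT1X stood at 16.66, 16.76 and 16.65 against 17.39, 17.41 and 17.47, with control at 16.29, 16.29 and 16.20 (difference -0.73 ± 0.05, adjusted p = 4.4e-06), and its dimmer probe gave -0.28 ± 0.05. MT1M was at 1.32 ± 0.0181 and 2.23 ± 0.0907 of control. Metallothionein genes are near-identical copies, and their probes may read each other's transcripts.

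Genes of homologous recombination and the Fanconi pathway, which repair DNA breaks and crosslinks, lay below control by the median in both groups, and further below it on the DBP5 arrays. Of 33 genes, 22 were lower on the DBP5 arrays and 4 higher (median -0.22, and -0.47 and -0.22 against control). FANCC stood at 9.08, 9.12 and 9.27 on the DBP5 arrays, at 10.71, 10.63 and 10.60 on the IPPK arrays and at 10.61, 10.67 and 10.66 in control (difference -1.49 ± 0.06, adjusted p = 4.0e-07), while its dimmer second probe did not pass (-0.18 ± 0.09, adjusted p = 0.102). SLX4, a nuclease scaffold, was higher on the DBP5 arrays (0.72 ± 0.05).

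Of 36 replication licensing and fork factors, 16 were lower on the DBP5 arrays and 2 higher, with medians of -0.65 and -0.45 against control. PRIM1, a primase subunit, had a difference of -0.81 ± 0.05. MCM2, of the replicative helicase, was at 0.556 ± 0.0548 and 0.555 ± 0.0051 of control and did not pass between the knock-downs (0.00 ± 0.07, adjusted p = 0.975). Nor did CDK2, at 0.418 ± 0.02 and 0.412 ± 0.008 (0.02 ± 0.05, adjusted p = 0.755). E2F2, a transcription factor of the G1/S transition, was at 0.16 ± 0.0057 and 0.253 ± 0.0122 (difference -0.66 ± 0.05). Replication-dependent histones were lower on the DBP5 arrays for 28 of 50 and higher for 0, with differences of -0.60 to 0.14 over the list. Their genes share sequence, and their probes are not independent. Of 58 mitotic spindle, kinetochore and cytokinesis genes, 21 were lower on the DBP5 arrays and 12 higher (5 and 0 by 1.5-fold). ECT2, the guanine nucleotide exchange factor of cytokinesis, was lower on the DBP5 arrays (-1.21 ± 0.06), while the mitotic kinase PLK1 did not pass (0.13 ± 0.09, adjusted p = 0.259).

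Genes named ZNF, most of which encode transcription factors with C2H2 zinc fingers, were counted by symbol, a family chosen after its values were seen. Of 479 tested, 220 were lower on the DBP5 arrays and 73 higher, and by 1.5-fold 82 were lower and 14 higher (median -0.18). On chromosome 19, which carries large clusters of them, 48 of 223 were lower by 1.5-fold and 3 higher (median -0.29). Of 965 other genes there, 40 were lower by 1.5-fold and 106 higher (median 0.06). ZNF876P (-2.73 ± 0.08) and ZNF519 (-2.28 ± 0.15) were the lowest of the family, and ZNF853 (2.78 ± 0.11) the highest. ZNF genes share finger sequences, and probes of close copies may read each other's transcripts.

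In the other direction, CSRP3, the muscle LIM protein, had the largest difference. It stood at 9.26, 9.62 and 9.69 on the DBP5 arrays, at 5.35, 5.61 and 5.53 on the IPPK arrays, and at 8.38, 8.41 and 8.37 in control. The DBP5 arrays lay above control, at 2.19 ± 0.341 times it, and the IPPK arrays below, at 0.135 ± 0.0126 (difference 4.03 ± 0.08, adjusted p = 2.3e-08, 16.3-fold). TNNT2, cardiac troponin T, was 8.99, 8.95 and 9.77 against 5.90, 5.89 and 5.83 (difference 3.37 ± 0.18). HSPB3, a small heat shock protein of muscle, was high on the DBP5 arrays, at 8 ± 0.166 times control against 1.3 ± 0.148 on the IPPK arrays.

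FGFBP1, which carries fibroblast growth factors, was below control in both, at 0.505 ± 0.0183 and 0.0587 ± 0.0093 (difference 3.11 ± 0.14). GTSF1, known from the piRNA pathway of germ cells, was at 0.129 ± 0.0047 of control on the IPPK arrays and 1.03 ± 0.101 on the DBP5 arrays. RPS6KA4, a kinase of CREB and histone H3, was at 0.171 ± 0.0071 and 1.17 ± 0.194 in the same order. CACNA1G, a T-type calcium channel, had a difference of 2.72 ± 0.11. OLFML2A, at 2.46 ± 0.12, had a second probe at -0.14 ± 0.08 that did not pass (adjusted p = 0.177), so its probes disagree.

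S100 genes encode small calcium-binding proteins. Of 19 genes whose symbols begin with S and a digit, mostly S100 genes and a family chosen after its values were seen, 13 were higher on the DBP5 arrays and 0 lower (median 0.57). S100A10, the partner of annexin A2 at the membrane, stood at 15.77, 15.51 and 15.69 on the DBP5 arrays, at 12.76, 12.92 and 13.01 on the IPPK arrays, and at 15.27, 15.42 and 15.37 in control. The IPPK arrays were the low group, at 0.182 ± 0.0162 of control (difference 2.76 ± 0.09, adjusted p = 1.3e-07). S100A13 had a difference of 1.70 ± 0.06 and S100A4 one of 1.16 ± 0.09. S100A14 was at least 1.21-fold higher, since it was not well above background on any IPPK array. Such bounds set the mean of the bright group against the lowest signal that counted as well above background, or the dim probe's own where higher.

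Adhesion, matrix and cytoskeleton genes were more often higher than lower on the DBP5 arrays. Of 37 integrin and focal adhesion genes, 21 (56.8%) were higher and 6 lower (median 0.36). FSCN1, the actin bundler fascin, stood at 16.29, 16.31 and 16.31 on the DBP5 arrays, at 14.61, 14.87 and 14.92 on the IPPK arrays, and at 16.69, 16.63 and 16.70 in control (difference 1.51 ± 0.07, adjusted p = 7.8e-07). CAV2, a caveolin, had a difference of 1.30 ± 0.06 and FERMT2, which activates integrins, one of 1.07 ± 0.06 (0.62 ± 0.05 by its dimmer probe). The collagen receptor subunits ITGA2 (-1.42 ± 0.06) and ITGA1 (-0.91 ± 0.18) were lower on the DBP5 arrays.

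COL1A1, the main collagen of bone, was 12.18, 12.11 and 12.30 on the DBP5 arrays against 10.71, 10.48 and 10.59, or 0.767 ± 0.0535 and 0.252 ± 0.02 of control (difference 1.60 ± 0.07, adjusted p = 5.1e-07). Of 26 collagens, 10 were higher and 5 lower (5 and 0 by 1.5-fold). Matrix proteases, crosslinking enzymes and glycoproteins were split, with 16 of 55 higher and 12 lower by 1.5-fold. MMP7 (1.61 ± 0.13) and MMP2 (1.27 ± 0.12) were higher on the DBP5 arrays. ADAMTS9 (-2.73 ± 0.08) and the urokinase PLAU (-1.80 ± 0.08) were lower. MMP10 was at least 3.55-fold lower, as it was not well above background on any DBP5 array.

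Targets of the serum response factor SRF and its actin-regulated cofactor MKL1, many of them contractile genes, were higher on the DBP5 arrays for 15 of 31 and lower for 4 (8 and 0 by 1.5-fold, median 0.20). FLNA, filamin A, was at 1.59 ± 0.288 and 0.859 ± 0.0214 of control (difference 0.88 ± 0.11). ACTN1, an actinin, was above control in both, at 4.26 ± 1.02 and 2.35 ± 0.151. SRF itself had a difference of 0.83 ± 0.14 and MYL9, a myosin light chain, one of 0.82 ± 0.08. CArG boxes, the SRF binding letters, were in 1.29% of all windows and in 8 of the 27 list members with a window, of which 4 were higher and 1 lower. Of the 19 members without one, 9 were higher and 2 lower.

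Of 28 Ras, Ral and Rap small GTPases, 13 were higher and 6 lower (8 and 2 by 1.5-fold). RRAS stood at 13.39, 13.57 and 13.56 on the DBP5 arrays, at 12.34, 12.21 and 12.27 on the IPPK arrays and at 13.15, 13.07 and 13.15 in control (difference 1.23 ± 0.07, adjusted p = 1.2e-06). RAP2A was above control in both, at 3.2 ± 0.0472 and 1.61 ± 0.0453. Of 67 genes named RAB, most of which direct vesicles and which were chosen after their values were seen, 27 were higher and 18 lower (17 and 5 by 1.5-fold). RAB15 (2.08 ± 0.04) and RAB30 (2.03 ± 0.09) were higher on the DBP5 arrays and RAB39B (-2.20 ± 0.06) lower.

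Selenoproteins carry selenocysteine, and many are oxidoreductases. Of 21, 14 were higher on the DBP5 arrays and 6 lower (median 0.33). DIO2, a deiodinase that activates thyroid hormone, stood at 8.18, 8.28 and 8.30 on the DBP5 arrays, at 5.90, 6.07 and 5.95 on the IPPK arrays and at 6.68, 6.88 and 6.86 in control (difference 2.28 ± 0.05, adjusted p = 3.4e-08). SELENOT was above control in both, at 3.67 ± 0.33 and 1.75 ± 0.087. SELENOI, the ethanolamine phosphotransferase, was lower on the DBP5 arrays (-1.31 ± 0.06, and -0.51 ± 0.06 by its dimmer probe), as was TXNRD1, described above.

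Lipid genes that passed the test were also more often higher than lower. Of 35 mevalonate and cholesterol genes, 21 were higher and 7 lower (7 and 2 by 1.5-fold, median 0.26). DOLK, the kinase that makes dolichol phosphate for protein glycosylation, was 10.48, 10.61 and 10.59 on the DBP5 arrays against 8.59, 8.76 and 8.77, with control at 9.62, 9.72 and 9.75 (difference 1.85 ± 0.05, adjusted p = 7.5e-08). SRD5A3, which makes dolichol, had a difference of 1.13 ± 0.12, and MVD and FDFT1 of the sterol pathway differences of 0.84 ± 0.12 and 0.83 ± 0.07. NUS1, a subunit of the enzyme that builds the dolichol chain, was lower (-0.49 ± 0.04), and its other probes gave -0.49 ± 0.07 and -2.27 ± 0.09. Of 40 fatty acid genes, 24 were higher and 10 lower, but 7 and 6 by 1.5-fold, among them CPT2 (1.18 ± 0.07) and ACSL3 (-1.41 ± 0.06).

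Intraflagellar transport genes, named IFT and chosen as a family after their values were seen, build the cilium through which Hedgehog signals pass in vertebrate cells. Of 16, 10 were higher on the DBP5 arrays and 0 lower (median 0.35). IFT20 was 10.97, 11.14 and 11.22 on the DBP5 arrays and 9.15, 9.17 and 9.23 on the IPPK arrays, with control at 11.14, 11.18 and 11.14 (difference 1.93 ± 0.06, adjusted p = 1.1e-07). Of 20 Hedgehog pathway genes, 9 were higher and 3 lower. GLI1, a transcription factor that the pathway induces, was at 0.677 ± 0.028 and 0.255 ± 0.0279 of control (difference 1.41 ± 0.11) and the receptor PTCH1 at 1.03 ± 0.0177 and 0.437 ± 0.0228. SMO, the signal transducer, had a small difference (0.19 ± 0.05, adjusted p = 0.00696), and GLI3 did not pass (0.07 ± 0.05, adjusted p = 0.28).

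The export machinery in which both targets act had a median near 0. Of 32 mRNA export adaptors and receptors, 6 (18.75%) were higher and 10 (31.25%) lower on the DBP5 arrays (median -0.04). Of all genes, 26.6% were higher and 27.9% lower. NXF1, the main export receptor, was at 1.21 ± 0.0905 and 0.714 ± 0.0319 of control (difference 0.77 ± 0.05, adjusted p = 5.1e-06). PCID2, of the export complex TREX-2, had a difference of 1.28 ± 0.08. The cap-binding subunit NCBP2 (-1.10 ± 0.05) and THOC1 of the THO complex (-0.86 ± 0.10) were lower.

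Of 30 nucleoporins, 2 were higher and 12 lower (median -0.13). NUP58 was above control in both, at 2.11 ± 0.065 and 3.78 ± 0.243 (difference -0.84 ± 0.05). Of 45 DEAD-box and DEAH-box helicases other than DDX19A and DDX19B, 13 were higher and 14 lower, including DDX41 (1.24 ± 0.09) and the translation helicase EIF4A1 (-0.92 ± 0.05). Of 33 inositol phosphate kinases and phosphatases, IPPK among them, 12 were higher and 8 lower. The phosphatases INPP5J (1.11 ± 0.15) and OCRL (0.71 ± 0.06) and the kinase IP6K2 (0.67 ± 0.04), which adds a further phosphate to IP6, were higher on the DBP5 arrays.

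Lists of housekeeping genes and of p53 targets were counted as well, beside 26.6% of all genes higher and 27.9% lower. Of 78 cytosolic ribosomal proteins, 15 were higher and 2 lower (median 0.07), and RPL27A alone passed at 1.5-fold (1.08 ± 0.05). Without DBP5 replicate 3 or IPPK replicate 3, 6 were higher, and 9 without IPPK replicate 2. Of 49 translation factors, 14 were higher and 14 lower, with differences of -1.49 to 1.40, and 9 were higher without DBP5 replicate 3. Of 75 oxidative phosphorylation subunits, 5 were higher and 26 lower (median -0.07). Of 75 mitochondrial ribosomal proteins, 9 were higher and 36 lower (median -0.16), led by MRPL42 at -1.40 ± 0.05. Of 29 p53 targets, 9 were higher and 11 lower (2 and 5 by 1.5-fold), with differences of -1.89 to 1.08. Of 57 splicing factors, 10 were higher and 19 lower. TENT4B, a poly(A) polymerase that works with the nuclear exosome, was at least 3.24-fold higher on the DBP5 arrays, since it was not well above background on any IPPK array.

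**Figure D5:**
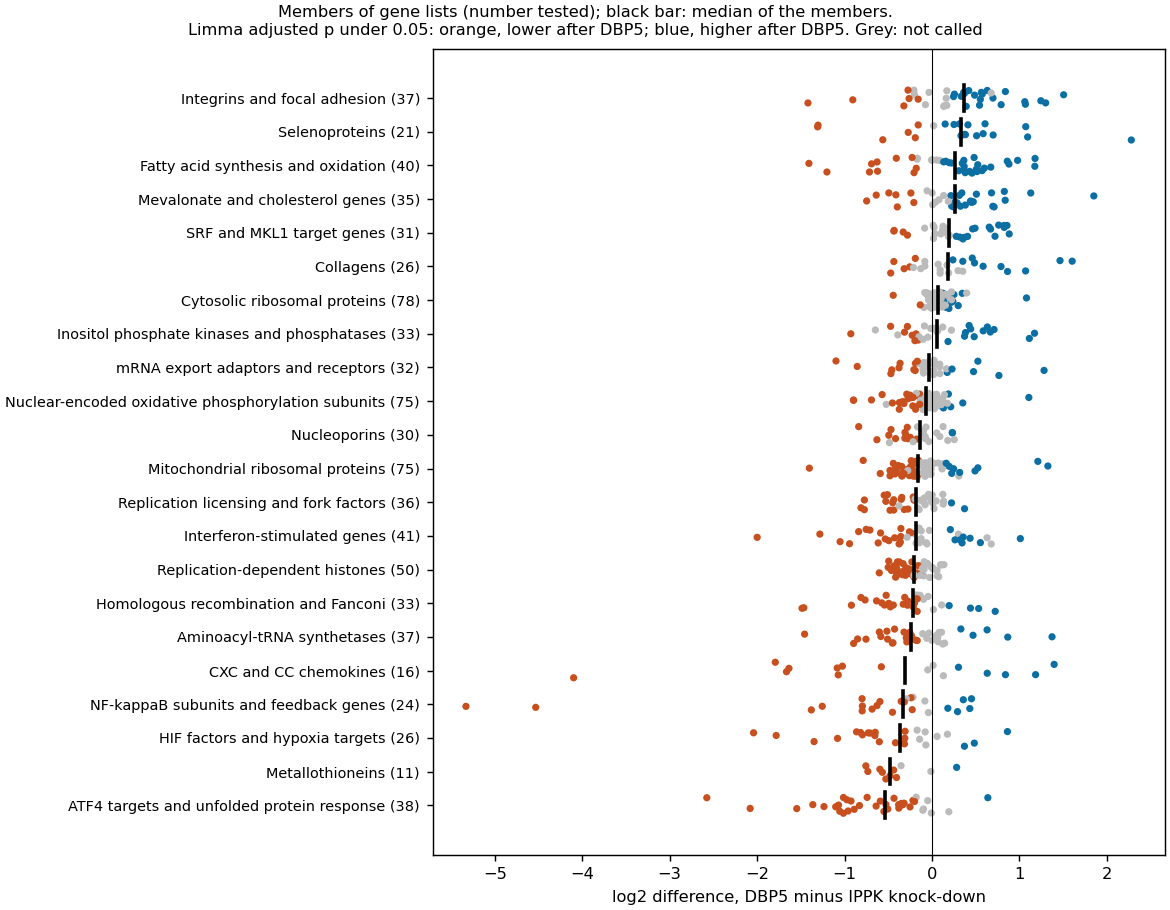
log2 difference, DBP5 minus IPPK knock-down, of each member of the gene lists shown (number tested in brackets), with the median as a black bar and members past limma in colour. ATF4 targets and the unfolded protein response have the lowest median, -0.54, and integrins and focal adhesion the highest, 0.36.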

How the data were processed

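Cytoplasmic RNA of 12 samples was hybridised to 1-colour Agilent arrays of 4 siRNAs with 3 replicates each, and DBP5 and IPPK knock-down arrays were compared. The deposited spot intensities were background-subtracted and detrended with Feature Extraction 10.7.3.1 per the file headers (design build hg19). The authors' deposited table of log2 values, normalized by LOESS, served as an alternative. Control and outlier spots were left out, spots of a probe averaged, log2 intensities normalized by cyclic loess over 12 arrays, and the brightest probe kept per gene. A gene was tested if its probe was well above background on all 3 DBP5 or all 3 IPPK arrays. limma 3.58.1 (R 4.3.3) fitted siRNA means with the replicate number as a block and Benjamini-Hochberg adjustment at 0.05. Each number marks a shared slide: deviations of same-slide DBP5 and IPPK arrays correlated at 0.419 to 0.440, and those of other slides at -0.290 to -0.134. The number of arrays limits the precision.

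Named genes were the targets, the 15 largest differences per direction, up to 4 members per list and direction, genes the study names, and those stated as chosen after their values were seen. The comparison, members and lists were chosen with earlier results of these data known. Promoter windows are from RefSeq.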

Additional observations from a re-analysis of the deposited data

How the results depend on the processing

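Counts by size of difference moved with normexp correction, which also took other signal columns and an offset of 50, and with the authors' processed table, which has its own normalization. The authors' values correlated with the median signal at 0.9998 or more on each array, and with the background-subtracted signal at 0.961 to 0.967. At least 1.5-fold apart were 1298 genes higher and 1206 lower with normexp correction, and 1242 and 1207 with the processed values of the authors, against 1970 and 1913. At least 2-fold apart were 357 and 324 with normexp and 333 and 322 with the authors' values, against 680 and 661. Under the t-test that the methods name without tying it to the arrays, here paired by slide, 1917 genes were higher and 2115 lower after Benjamini-Hochberg adjustment, and 1145 and 1167 at 1.5-fold. The cause of these shifts was not tested. Leaving out 1 array at a time gave 4640 to 5178 genes higher and 4921 to 5508 lower, and the fit of the 6 arrays alone 4792 and 4978.

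With no replicate block, 4949 genes were higher and 5199 lower, against 5389 and 5656 in the fit paired by slide, and none of the 118 genes named in the text lost its call or changed sign. Apart from the t-test, under which 21 of the 118 lost their call, DDIT3 was the one gene to lose its call in a refit: without DBP5 replicate 1 or 2, with no filter on dim probes, and in both fits of the 6 arrays alone. MCM2 and CDK2, which did not pass, changed sign with 75th percentile scaling (-0.0131 and -0.0044), and MCM2 ranged from -0.0586 to 0.0854 as arrays were left out. The other probe of OLFML2A gave -0.1386. Each probe on its own was an alternative chosen after seeing the data, and 4 other genes (FANCC, OAS2, OAS3 and RUNX2) had a second probe that did not pass.

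The medians of 33 lists given in the text, all but the mitotic spindle list, were recomputed under 18 alternatives. Of these 594 medians, 86 moved by more than their SD over slides, in 23 of the lists. A change of sign was seen in 5 lists, which were mRNA export adaptors (-0.0752 to 0.0032), p53 targets (-0.0168 to 0.0841), cytosolic ribosomal proteins (-0.0051 to 0.0956), translation factors (-0.0082 to 0.0395) and interleukins, LIF and colony-stimulating factors (-0.1304 to 0.0412). For 3 lists, which were the DEAD-box and DEAH-box helicases, the Toll-like receptors and RNA sensors and the glycolytic enzymes, an alternative turned which direction held more calls. Leaving out 1 array also moved some list counts by over 1.5 times and more than 1 gene. Beside those given with their lists, 5 inositol phosphate genes were lower without IPPK replicate 2 or 3 (8 in the fit of all arrays), 8 aminoacyl-tRNA synthetases (5) and 9 oxidative phosphorylation subunits (5) were higher without DBP5 replicate 1, and 3 of the latter without IPPK replicate 2. Without IPPK replicate 2 or 3, 3 NF-kappaB genes were higher (5). Lower collagens were 3 (5) without DBP5 replicate 2 or 3 or IPPK replicate 1, and lower SRF targets 2 (4) when 1 of these arrays or IPPK replicate 2 was left out.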
